A study of Mus musculus with 24 samples.

Results

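Levels of 10 signalling genes were followed in developing mouse lung: Shh, Ptch1, Gli1 and Hhip of the Hedgehog pathway, Fgf10, Fgfr2 and Fgf18 of the FGF pathway, Wnt2 and Wnt5a of the WNT family, and Bmp4. They were chosen by name, and each of the 10 had exactly 1 probe set among the 19938 genes that the arrays name singly. RNA of the left lung lobe was measured on 24 Affymetrix arrays, 3 for each of 8 groups. The groups were wild-type (WT) and Scnn1b-Tg male littermates of strain C57Bl/6N Tac at postnatal day (PND) 0, 3, 10 and 42, all untreated and kept free of specific pathogens. Scnn1b-Tg mice overexpress the beta subunit of the epithelial sodium channel in airway club cells under the Scgb1a1 promoter, which dehydrates the airway surface, so the transgene acts in a small share of the cells sampled. Each array held pooled RNA. The labels list 2 animals for an array and 1 animal for Scnn1b-Tg PND 42 replicate 3, while the methods speak of pools of 3, so the arrays of a group are separate pools but the number of mice behind each is uncertain.

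These genes carry messages between the lung's epithelium and the mesenchyme around it. Sonic hedgehog (Shh) is secreted by epithelium and acts on mesenchyme, where it binds the receptor Ptch1 and activates the transcription factor Gli1. Ptch1, Gli1 and the decoy receptor Hhip are themselves targets that Hedgehog signalling switches on. Fgf10 is made by mesenchyme and signals to epithelium through Fgfr2 to drive branching, and Fgf18 is a mesenchymal ligand of the alveolar period. Wnt2 is a mesenchymal ligand of the developing lung, and Wnt5a is a ligand that mostly acts without beta-catenin. Bmp4 is a secreted factor of both compartments. In the mouse the alveoli form after birth, between the first days of life and adulthood, so the 4 ages span that period.

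The labelled tissue and genotype were checked first. Scnn1b lay between 6.37 and 8.22 (log2 array value) in WT arrays and between 9.62 and 10.94 in Scnn1b-Tg arrays, with no overlap. The lung marker Sftpc had group means from 13.05 to 13.97, far above the array medians. Those medians lay between 4.79 and 5.0. These levels are compared only within a gene, because probe sets differ in brightness for reasons other than RNA amount. In whole lung, fewer cells of a type and less RNA per cell cannot be told apart.

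Only Wnt5a in Scnn1b-Tg was called both from PND 0 to PND 3 and from PND 10 to PND 42. How many of all probe sets were called in both was not counted, so no result is drawn from the overlap. Ptch1, Hhip and Fgfr2 fell between PND 0 and PND 3 in both genotypes, and Wnt2 and Wnt5a fell between PND 10 and PND 42 in both. A gene was called when its limma p, adjusted by Benjamini-Hochberg over all 21789 probe sets that name 1 gene, was at most 0.05 and its change at least 2-fold. From PND 0 to PND 3, 3 of 10 genes were called lower in WT, where 7.79% of all probe sets were lower and 1.96% higher, and 4 of 10 in Scnn1b-Tg (Ptch1, Hhip, Fgfr2 and Wnt5a), where 8% were lower and 2.26% higher. From PND 10 to PND 42, 3 of 10 were called lower in WT (Fgf18, Wnt2 and Wnt5a; all probe sets 3.84% lower and 1.7% higher) and 2 of 10 in Scnn1b-Tg (Wnt2 and Wnt5a; 3.38% lower and 1.79% higher). Between PND 3 and PND 10, 0 of 10 were called in either genotype by limma, with 1 gene at an unadjusted p of at most 0.05 in WT and 2 in Scnn1b-Tg, while 1.29% and 1.09% of all probe sets were called. Over the whole span from PND 0 to PND 42, 6 of 10 were lower in WT (all probe sets 9.73% lower and 1.71% higher) and 7 of 10 in Scnn1b-Tg (8.7% lower and 2.48% higher). No gene of the 10 was called higher in any of these intervals. By adjusted p alone, Hhip and Wnt2 passed from PND 0 to PND 3 and from PND 10 to PND 42 in both genotypes. Wnt2 rose in the first of these intervals and fell in the last. The median change of the 10 from PND 0 to PND 42 was -1.29 in WT and -1.23 in Scnn1b-Tg (log2), beside -0.03 and -0.01 over all probe sets.

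**Figure D1:**
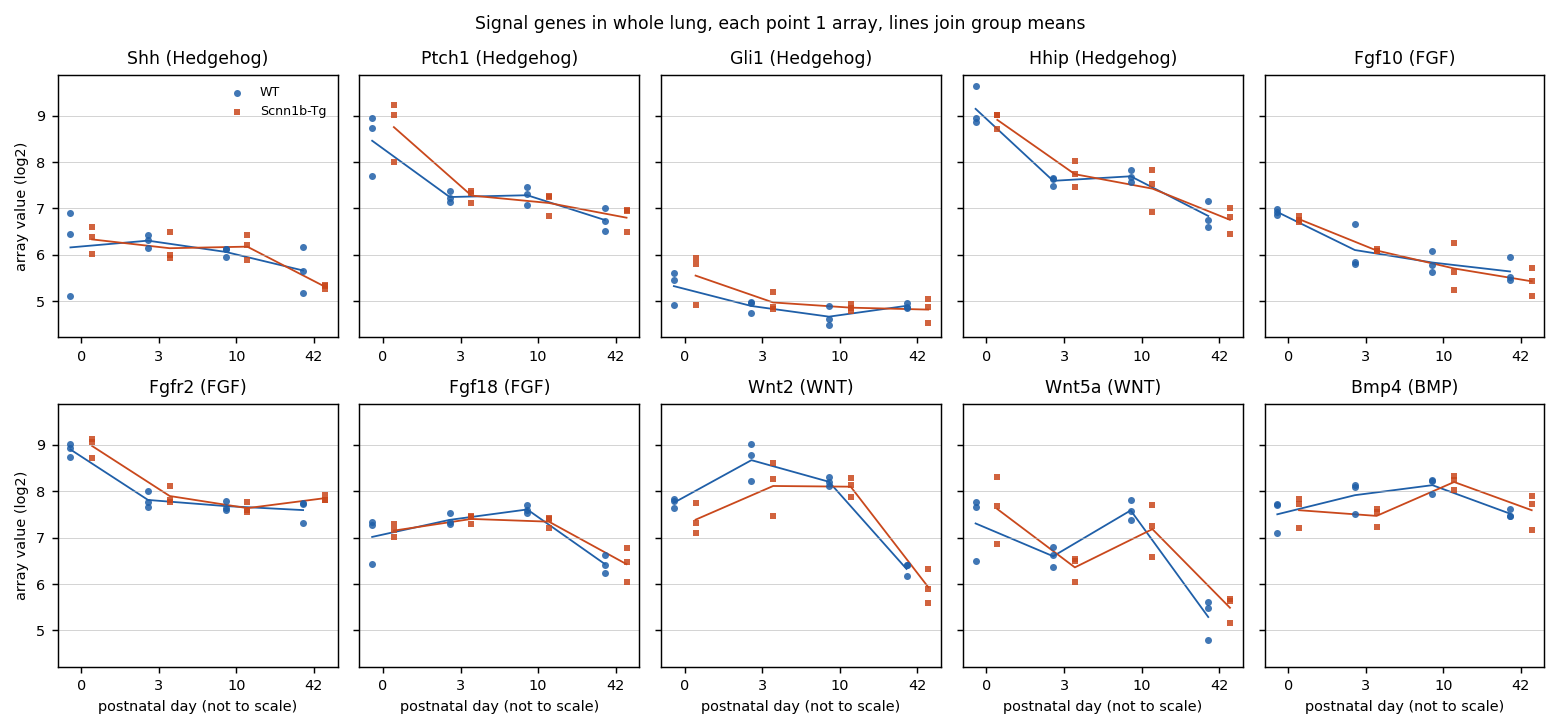
Array values (log2) of the 10 genes at PND 0, 3, 10 and 42, in WT (blue circles) and Scnn1b-Tg (orange squares), each point 1 array and each line joining the means of 3 arrays. Ptch1, Hhip and Fgfr2 step down after PND 0, Wnt2 and Wnt5a drop after PND 10, and the group means of the genotypes lie within 0.56 of each other at every age.

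RefSeq promoter sequence (build GRCm38.p6, 300 bases that end 50 bases past the start of transcription) was found for 7 of the 10 genes: Ptch1, Hhip, Fgf10, Fgfr2, Fgf18, Wnt2 and Bmp4. Shown are Ptch1 and Hhip, which were called lower from PND 0 to PND 3, and Wnt2 and Fgf18, which were called lower after PND 10 (Fgf18 in WT), so that the sequence near their starts can be read beside their levels. Each is written 5′ to 3′ along the gene, in lower case, with capitals marking the GC box (GGGCGG, or CCGCCC where it lies on the other strand), a short motif bound by Sp factors. Ptch1 is at chr13:63565686-63565985 and Hhip at chr8:80057959-80058258, while Wnt2 is at chr6:18030396-18030695 and Fgf18 at chr11:33147351-33147650, all on the minus strand.
Ptch1: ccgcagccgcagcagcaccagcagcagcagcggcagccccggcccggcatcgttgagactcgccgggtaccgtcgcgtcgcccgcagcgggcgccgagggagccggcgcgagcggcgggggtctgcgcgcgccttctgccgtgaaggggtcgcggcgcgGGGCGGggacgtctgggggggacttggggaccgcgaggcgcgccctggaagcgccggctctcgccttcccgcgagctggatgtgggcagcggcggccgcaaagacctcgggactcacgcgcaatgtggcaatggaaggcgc
Hhip: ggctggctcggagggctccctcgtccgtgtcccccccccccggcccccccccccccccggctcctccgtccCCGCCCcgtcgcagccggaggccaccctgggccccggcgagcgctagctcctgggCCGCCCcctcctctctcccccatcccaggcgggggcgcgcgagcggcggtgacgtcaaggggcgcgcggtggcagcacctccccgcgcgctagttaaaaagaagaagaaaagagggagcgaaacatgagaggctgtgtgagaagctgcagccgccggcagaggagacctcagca
Wnt2: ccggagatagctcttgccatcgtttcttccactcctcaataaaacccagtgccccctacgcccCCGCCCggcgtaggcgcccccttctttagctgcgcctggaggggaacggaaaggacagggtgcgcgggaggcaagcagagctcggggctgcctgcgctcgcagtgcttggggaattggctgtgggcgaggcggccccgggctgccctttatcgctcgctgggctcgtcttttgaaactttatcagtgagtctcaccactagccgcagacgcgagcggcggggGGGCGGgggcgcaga
Fgf18: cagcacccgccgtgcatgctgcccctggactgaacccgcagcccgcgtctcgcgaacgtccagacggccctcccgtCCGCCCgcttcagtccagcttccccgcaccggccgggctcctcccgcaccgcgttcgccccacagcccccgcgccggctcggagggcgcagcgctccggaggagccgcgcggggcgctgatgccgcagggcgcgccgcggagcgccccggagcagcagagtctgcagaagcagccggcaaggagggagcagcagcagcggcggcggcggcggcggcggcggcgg
The GC box matched once in Ptch1 and Fgf18 and at 2 places in Hhip and Wnt2, and in 6 of the 7 promoters in all, against 35.7% of the 32851 promoters in the table. Base composition was likewise high: G and C made up 76.3% of the Ptch1 window, 73.7% of Hhip, 65.7% of Wnt2 and 78.7% of Fgf18, where the median promoter had 52.7%. The promoter of Fgfr2 was the exception, with 43.7% G and C and no GC box. The 9 letters GACCACCCA, to which GLI factors bind, were found in none of the 7 on either strand and in 0.253% of all promoters. These are matches of letters in a short window and were not read as binding sites. Neither GC box nor base composition set the first pair apart from the second.

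Shh, the Hedgehog ligand, had no called change between consecutive ages, and its means were lowest at PND 42. In WT it read 5.12, 6.91 and 6.45 at PND 0, 6.44, 6.15 and 6.33 at PND 3, 6.13, 5.94 and 6.12 at PND 10 and 6.16, 5.18 and 5.65 at PND 42. In Scnn1b-Tg it read 6.39, 6.6 and 6.01 at PND 0, 5.92, 6.01 and 6.5 at PND 3, 5.88, 6.22 and 6.43 at PND 10 and 5.35, 5.32 and 5.27 at PND 42. The 3 WT arrays at PND 0 spanned the range of all other groups, with replicate 1 the lowest of the 24, while the Scnn1b-Tg arrays at PND 42 lay together below those of every earlier Scnn1b-Tg age. The change from PND 0 to PND 42 was called in Scnn1b-Tg (log2 change -1.02, SE 0.30, adjusted p 0.00793) and not in WT (-0.50, adjusted p 0.164). The Scnn1b-Tg change lies at the 2-fold limit: without Scnn1b-Tg PND 0 replicate 2 it was -0.88, without PND 0 replicate 1 -0.988 and without PND 42 replicate 3 -0.995, each short of the limit with adjusted p between 0.0243 and 0.0393, and it was -0.75 with quantile normalization repeated and -0.95 with array medians subtracted.

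Ptch1, the Shh receptor and a target of the pathway, fell after birth. Its WT values were 7.69, 8.74 and 8.95 at PND 0 and 7.38, 7.14 and 7.21 at PND 3, then 7.08, 7.47 and 7.30 at PND 10 and 6.51, 7.0 and 6.74 at PND 42. Its Scnn1b-Tg values were 8.01, 9.23 and 9.01 at PND 0, 7.11, 7.38 and 7.34 at PND 3, 6.84, 7.26 and 7.26 at PND 10 and 6.94, 6.97 and 6.49 at PND 42. Every PND 0 array lay above every later array of its genotype, and replicate 1 was the lowest of the PND 0 arrays in both. The fall from PND 0 to PND 3 was 2.32-fold in WT (log2 change -1.21, SE 0.28, adjusted p 0.00115) and 2.78-fold in Scnn1b-Tg (-1.47, SE 0.28, adjusted p 1.59e-04). In WT it came to -0.97, just under 2-fold, without PND 0 replicate 3. From PND 0 to PND 42 the fall was 3.26-fold in WT and 3.87-fold in Scnn1b-Tg.

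Hhip, the membrane-anchored decoy that binds Shh, showed the widest range of the Hedgehog genes. The WT arrays gave 9.63, 8.94 and 8.87 at PND 0, 7.64, 7.67 and 7.48 at PND 3, 7.57, 7.84 and 7.67 at PND 10 and 6.75, 7.17 and 6.6 at PND 42. The Scnn1b-Tg arrays gave 8.70, 9.01 and 9.01 at PND 0, 8.02, 7.74 and 7.46 at PND 3, 6.92, 7.54 and 7.82 at PND 10 and 7.01, 6.81 and 6.45 at PND 42. It is a gene of 2 steps: all PND 0 arrays lay above all later ones, and the WT arrays of PND 42 lay below those of PND 3 and PND 10. The fall to PND 3 was 2.93-fold in WT (log2 change -1.55, SE 0.22, adjusted p 6.58e-06) and 2.25-fold in Scnn1b-Tg (-1.17, SE 0.22, adjusted p 1.58e-04). From PND 10 to PND 42 the adjusted p was below the threshold but the size was not 2-fold, at -0.85 in WT (adjusted p 0.00469) and -0.67 in Scnn1b-Tg (adjusted p 0.0232). Over the whole span Hhip fell 4.95-fold in WT (adjusted p 3.42e-08) and 4.45-fold in Scnn1b-Tg (adjusted p 8.21e-08).

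Gli1, the transcription factor that the pathway induces, lay near the array medians, where a change is hard to see. In WT its arrays ran from 4.93 to 5.6 at PND 0, from 4.74 to 4.98 at PND 3, from 4.48 to 4.91 at PND 10 and from 4.86 to 4.97 at PND 42. In Scnn1b-Tg they ran from 4.93 to 5.92 at PND 0, from 4.84 to 5.21 at PND 3, from 4.79 to 4.94 at PND 10 and from 4.54 to 5.05 at PND 42. The upper 2 arrays of PND 0 stood above all later arrays of their genotype, while replicate 1 lay among the later arrays in both. The PND 0 to PND 3 difference was -0.43 in WT (adjusted p 0.0922) and -0.58 in Scnn1b-Tg (adjusted p 0.0243), and from PND 0 to PND 42 it was -0.42 (adjusted p 0.0831) and -0.73 (adjusted p 0.00533), all short of 2-fold.

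Of 14 other Hedgehog pathway genes 13 were measured, and few of them were called. From PND 0 to PND 3, 1 of 13 was lower in WT and 0 of 13 in Scnn1b-Tg, beside 7.79% and 8% of all probe sets. From PND 3 to PND 10, 1 of 13 was higher in each genotype, beside 1.29% and 1.09% of all probe sets called. Scube2, which helps release Hedgehog ligands from the cell, was called lower in WT from PND 0 to PND 3 (log2 change -1.004, adjusted p 7.62e-05) and higher in both genotypes between PND 3 and PND 10, by 1.52 in WT (SE 0.17, adjusted p 2.12e-05) and 1.05 in Scnn1b-Tg (adjusted p 0.00192). Its PND 0 to PND 3 call was kept in 29 of 36 settings, many of which leave out an array of another group and cannot move its change. That call was lost without WT PND 0 replicate 1, PND 3 replicate 1 or PND 3 replicate 3. It was also lost with array weights, with quantile normalization repeated and with array medians subtracted. The later Scube2 call in Scnn1b-Tg was lost without PND 10 replicate 2. In Scnn1b-Tg the co-receptor Boc (-1.07, adjusted p 2.35e-06) and the inhibitor Sufu (-1.002, adjusted p 4.83e-06) were lower at PND 42 than at PND 0. They were 2 of 13, beside 8.7% of all probe sets. In WT their means fell too without a call, Boc from 7.12 to 6.16 and Sufu from 6.32 to 5.45. For this span the difference between the genotypes was not tested. Sufu lies at the 2-fold limit and kept its call in 31 of 36 alternative settings, and Boc kept it in 34, both losing it with quantile normalization repeated and with array medians subtracted. Without Scnn1b-Tg PND 0 replicate 3 or PND 42 replicate 3 Sufu was not called. Boc and Sufu were named after their values were seen. The median change of the 13 genes from PND 0 to PND 42 was -0.25 in WT and -0.18 in Scnn1b-Tg, beside -0.03 and -0.01 over all probe sets.

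Fgf10, the mesenchymal ligand of branching, was lower after PND 0, and neither later interval reached an adjusted p of at most 0.05. In WT it read 6.92, 6.87 and 6.98 at PND 0, 6.67, 5.79 and 5.85 at PND 3, 5.79, 6.09 and 5.62 at PND 10 and 5.53, 5.95 and 5.46 at PND 42. In Scnn1b-Tg it read 6.84, 6.76 and 6.71 at PND 0, 6.08, 6.13 and 6.08 at PND 3, 5.25, 5.62 and 6.25 at PND 10 and 5.12, 5.72 and 5.45 at PND 42. The PND 0 arrays were tightly grouped and above all later arrays of their genotype. No single interval reached 2-fold, the PND 0 to PND 3 difference being -0.82 in WT (SE 0.22, adjusted p 0.00497) and -0.68 in Scnn1b-Tg (SE 0.22, adjusted p 0.0161). Over the whole span Fgf10 fell 2.43-fold in WT (adjusted p 6.42e-05) and 2.53-fold in Scnn1b-Tg (adjusted p 4.02e-05), the WT change coming to -0.95 with quantile normalization repeated.

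Fgfr2, the receptor through which Fgf10 acts on epithelium, made a single step. Its WT values were 8.94, 9.02 and 8.74 at PND 0 and 7.78, 8.01 and 7.65 at PND 3, then 7.64, 7.79 and 7.61 at PND 10 and 7.74, 7.31 and 7.73 at PND 42. Its Scnn1b-Tg values were 9.06, 9.13 and 8.72 at PND 0, 8.11, 7.77 and 7.81 at PND 3, 7.60, 7.54 and 7.76 at PND 10 and 7.81, 7.93 and 7.82 at PND 42. Arrays from PND 3 onward lay between 7.31 and 8.11, and none reached a PND 0 array. The fall from PND 0 to PND 3 was 2.12-fold in WT (log2 change -1.09, SE 0.14) and 2.11-fold in Scnn1b-Tg (-1.08, SE 0.14), each with an adjusted p of 1.52e-06. The size lies close to the limit: with quantile normalization repeated it was -0.95 and -0.99, with array medians subtracted -0.99 and -0.93, and without Scnn1b-Tg PND 0 replicate 2 it was -0.997 in that genotype, all just under 2-fold with adjusted p of at most 2.84e-05. From PND 0 to PND 42 Fgfr2 fell 2.47-fold in WT and 2.18-fold in Scnn1b-Tg, with log2 changes of -0.98 and -0.93 when quantile normalization was repeated. The PND 10 to PND 42 difference was -0.09 in WT (95% confidence interval -0.37 to 0.20) and 0.21 in Scnn1b-Tg (-0.07 to 0.50).

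Fgf18, a mesenchymal ligand of alveolar growth, had no called change up to PND 10 and its lowest means in the adult. The WT arrays gave 6.43, 7.27 and 7.34 at PND 0, 7.52, 7.30 and 7.33 at PND 3, 7.53, 7.70 and 7.59 at PND 10 and 6.24, 6.64 and 6.41 at PND 42. The Scnn1b-Tg arrays gave 7.01, 7.29 and 7.16 at PND 0, 7.29, 7.47 and 7.44 at PND 3, 7.20, 7.40 and 7.43 at PND 10 and 6.04, 6.47 and 6.78 at PND 42. All PND 42 arrays lay below all PND 3 and PND 10 arrays, and WT PND 0 replicate 1 alone stood among the PND 42 values. From PND 10 to PND 42 Fgf18 fell 2.26-fold in WT (log2 change -1.18, SE 0.19, adjusted p 6.08e-05). With quantile normalization repeated, that change was -0.98. In Scnn1b-Tg the change was -0.92 (SE 0.19, adjusted p 7.61e-04), short of 2-fold, and the difference between the genotypes' changes was not called.

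Of 15 other FGF pathway genes 14 were measured. The receptors Fgfr1 and Fgfrl1 and the feedback inhibitors Spry4 and Dusp6 were called between no ages in either genotype. Spry1, a feedback inhibitor that FGF signalling induces, was lower at PND 42 than at PND 0 in WT (log2 change -1.99, SE 0.16, adjusted p 3.69e-09). So was the receptor Fgfr3 (-1.22, SE 0.14, adjusted p 3.32e-07). Spry2 (-1.64) and Fgfr4 (-1.33) were also lower over that span in WT, and these 4 genes were the ones called lower in Scnn1b-Tg. That made 4 of 14 lower in each genotype, beside 9.73% of all probe sets in WT and 8.7% in Scnn1b-Tg. In WT 1 of 14 was higher over that span and in Scnn1b-Tg 0, beside 1.71% and 2.48% of all probe sets. The ligand Fgf1 went the other way, higher by 1.39 from PND 10 to PND 42 in WT (SE 0.16, adjusted p 1.54e-06) and by 1.31 in Scnn1b-Tg (adjusted p 3.46e-06). It was the 1 of 14 called higher there in each genotype, beside 1.7% and 1.79% of all probe sets. In that interval 2 of 14 were lower in WT and 0 in Scnn1b-Tg, beside 3.84% and 3.38%. From PND 0 to PND 3, Etv5, a transcription factor induced by FGF, was lower in both genotypes (-1.002 in WT and -1.07 in Scnn1b-Tg) and Spry2 in WT (-1.06). That made 2 of 14 lower in WT and 1 of 14 in Scnn1b-Tg, beside 7.79% and 8% of all probe sets. These counts moved with single settings, from 0 to 3 called lower in either genotype for PND 0 to PND 3. Etv5 kept its call in 31 of 36 settings in WT and in 33 in Scnn1b-Tg, and Spry2 in 31. All of these calls were lost with quantile normalization repeated and with array medians subtracted. Spry2, Fgfr4 and Etv5 were named after their values were seen.

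Wnt2 gave the largest change of the 10 genes between PND 10 and PND 42 in Scnn1b-Tg, after the highest levels at PND 3 and PND 10. In WT it read 7.78, 7.84 and 7.63 at PND 0, 9.01, 8.22 and 8.77 at PND 3, 8.20, 8.30 and 8.11 at PND 10 and 6.41, 6.40 and 6.16 at PND 42. In Scnn1b-Tg it read 7.10, 7.74 and 7.32 at PND 0, 7.47, 8.26 and 8.60 at PND 3, 8.14, 7.88 and 8.27 at PND 10 and 5.89, 6.32 and 5.59 at PND 42. Every adult array lay below every array of the 3 younger ages, in both genotypes. From PND 10 to PND 42 Wnt2 fell 3.67-fold in WT (log2 change -1.88, SE 0.24, adjusted p 4.21e-06) and 4.48-fold in Scnn1b-Tg (-2.16, SE 0.24, adjusted p 8.8e-07). The earlier step from PND 0 to PND 3 was upward, 0.92 in WT (adjusted p 0.00328) and 0.73 in Scnn1b-Tg (adjusted p 0.0148), and under 2-fold. Wnt2 fell 2.69-fold in WT and 2.74-fold in Scnn1b-Tg from PND 0 to PND 42.

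Wnt5a was the gene that dipped at PND 3, stood higher at PND 10 and was lowest in the adult. Its WT values were 6.5, 7.76 and 7.66 at PND 0, 6.63, 6.37 and 6.80 at PND 3, 7.38, 7.80 and 7.57 at PND 10 and 4.79, 5.61 and 5.48 at PND 42. Its Scnn1b-Tg values were 6.85, 7.68 and 8.31 at PND 0, 6.05, 6.49 and 6.54 at PND 3, 6.59, 7.25 and 7.71 at PND 10 and 5.67, 5.64 and 5.16 at PND 42. All 3 WT arrays of PND 10 lay above all 3 of PND 3, all PND 42 arrays lay below all others, and the 2 PND 0 replicate 1 arrays were the lowest of their age. From PND 10 to PND 42 Wnt5a fell 4.91-fold in WT (log2 change -2.30, SE 0.34, adjusted p 2.66e-05) and 3.23-fold in Scnn1b-Tg (-1.69, SE 0.34, adjusted p 6.27e-04). From PND 0 to PND 3 it was called lower in Scnn1b-Tg (-1.26, SE 0.34, adjusted p 0.00443), where leaving out PND 0 replicate 3 gave -0.91, and not in WT (-0.71, adjusted p 0.0926). The PND 3 to PND 10 differences of 0.99 in WT (adjusted p 0.109) and 0.82 in Scnn1b-Tg (adjusted p 0.236) were not called. Over the whole span the fall was 4.04-fold in WT and 4.37-fold in Scnn1b-Tg.

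All 33 other WNT pathway genes were measured. In WT from PND 0 to PND 3, 4 of 33 were lower, beside 7.79% of all probe sets, and 0 were higher. The 4 were the co-receptors Lrp6 (log2 change -1.62, SE 0.15, adjusted p 2.91e-08) and Lrp5 (-1.39), the receptor Fzd4 (-1.29) and the feedback target Axin2 (-1.34). In Scnn1b-Tg these genes and the transcription factor Tcf7l2 (-1.31) made up the 5 of 33 that were lower, beside 8% of all probe sets, and 2 to 5 were lower over the alternative settings. From PND 10 to PND 42 in WT 6 of 33 were lower and 2 higher, beside 3.84% and 1.7% of all probe sets, and the ligand Wnt11 (-1.72, SE 0.13, adjusted p 5.34e-09) and the secreted factor Dkk3 (-1.40, SE 0.13, adjusted p 6.95e-08) had the lowest p. The 2 that were higher were Sfrp1 (1.32), a secreted WNT inhibitor, and Rspo1 (1.02), an enhancer of WNT signalling. Rspo2, of the same family as Rspo1, was higher in WT from PND 3 to PND 10 (1.004, adjusted p 0.018) and in Scnn1b-Tg (1.05, adjusted p 0.0207), and so was Wnt11 in WT (1.33). That made 2 of 33 in WT and 1 of 33 in Scnn1b-Tg, beside 1.29% and 1.09% of all probe sets called. Rspo2 kept this call in 29 of 36 settings in WT and in 31 in Scnn1b-Tg, and Rspo1 kept its call in 30. Many of these settings leave out an array outside the contrast. Rspo2 lost its WT call without PND 3 replicate 2, PND 10 replicate 2 or PND 10 replicate 3. That call was also lost without eBayes moderation, with array weights, with quantile normalization repeated and with array medians subtracted. In Scnn1b-Tg Rspo2 lost the call without PND 3 replicate 1, PND 3 replicate 2 or PND 10 replicate 3. There it was also lost without eBayes moderation and with array weights. From PND 10 to PND 42 Rspo2 was called lower in both genotypes, in 36 of 36 settings each. That log2 change ran from -1.84 to -1.65 in WT and from -1.54 to -1.22 in Scnn1b-Tg over the settings. Its WT mean went from 6.24 at PND 10 to 4.50 at PND 42. Rspo1 lost its call without WT PND 10 replicate 1, PND 10 replicate 2, PND 42 replicate 2 or PND 42 replicate 3. It also lost it with array weights and with array medians subtracted. Over the whole span 9 of 33 were lower in WT (9.73% of all probe sets) and 6 of 33 in Scnn1b-Tg (8.7%), with list medians of -0.61 and -0.56. Those counts ran from 4 to 10 and from 3 to 9 over 36 alternative settings. Except for Lrp6, Wnt11 and Dkk3, the genes of this list were named after their values were seen.

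Bmp4, the secreted factor of both compartments, was the gene whose means at birth and in the adult lay closest together. The WT arrays gave 7.10, 7.70 and 7.72 at PND 0, 8.10, 7.51 and 8.13 at PND 3, 8.24, 7.94 and 8.21 at PND 10 and 7.47, 7.46 and 7.63 at PND 42. The Scnn1b-Tg arrays gave 7.21, 7.83 and 7.73 at PND 0, 7.22, 7.62 and 7.56 at PND 3, 8.02, 8.34 and 8.24 at PND 10 and 7.72, 7.89 and 7.16 at PND 42. The PND 10 arrays stood above the PND 42 arrays in both genotypes, and above the PND 3 arrays in Scnn1b-Tg. The PND 10 to PND 42 difference was -0.61 in both WT (adjusted p 0.0274) and Scnn1b-Tg (adjusted p 0.0296), below the 2-fold limit. From PND 0 to PND 42 the WT difference was 0.01 (95% confidence interval -0.41 to 0.44).

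Of 27 other BMP pathway genes 26 were measured. Chrdl1, a secreted BMP antagonist, was higher at PND 42 than at PND 0 by 1.99 in WT (log2 change, SE 0.10, adjusted p 4.95e-12) and by 1.87 in Scnn1b-Tg. Fstl1, a secreted factor that binds BMPs, was lower from PND 10 to PND 42, by -2.18 in WT (SE 0.12, adjusted p 5.82e-11) and -1.47 in Scnn1b-Tg. The inhibitory Smad7 was lower from PND 0 to PND 42 in WT (-1.35, SE 0.12, adjusted p 1.67e-08). With the receptor Bmpr2 (-1.74 in WT and -1.79 in Scnn1b-Tg), Smad7 made up the pair that was lower in both genotypes from PND 0 to PND 3. A count of 2 of 26 is near the share of all probe sets lower, 7.79% in WT and 8% in Scnn1b-Tg. The ligand Bmp2 was lower over the whole span (-1.66 in WT and -1.30 in Scnn1b-Tg). Bmpr2 and Bmp2 were named after their values were seen.

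**Figure D2:**
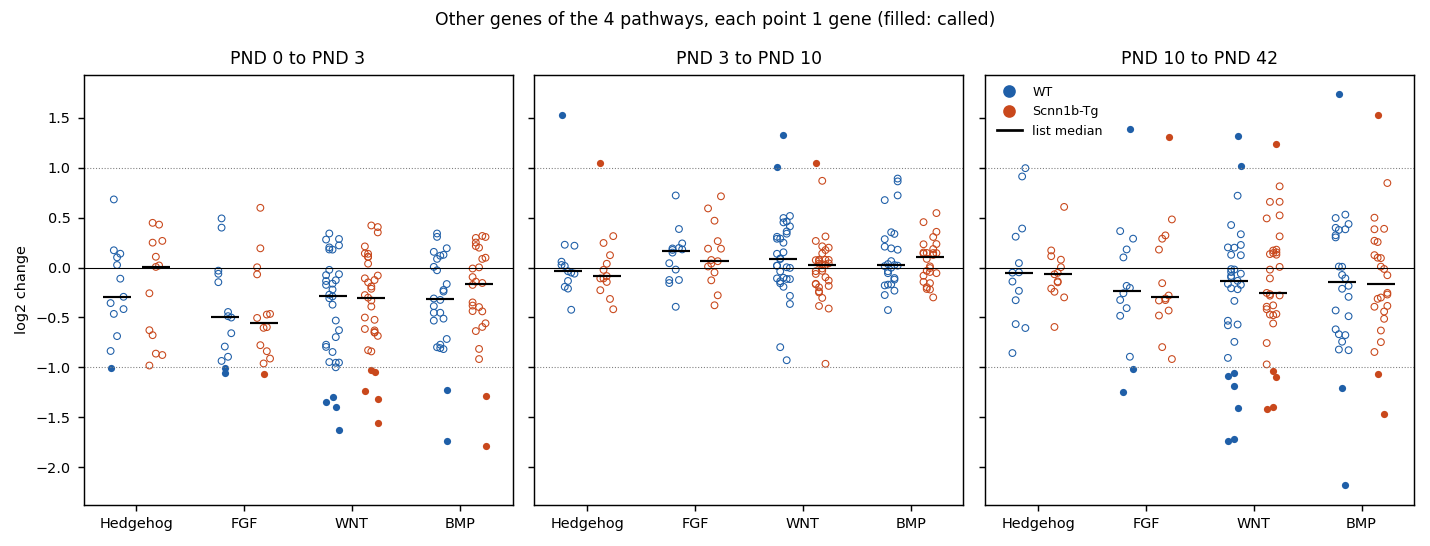
log2 change of the other genes of the Hedgehog, FGF, WNT and BMP pathways between consecutive ages, each point 1 gene, filled where called and open where not, with black bars at the median of the list and dotted lines at a 2-fold change. In the first interval all called genes lie below 0, in the second all lie above 0, and in the third they lie on both sides.

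The timing of the 10 genes was compared directly by testing whether the PND 0 to PND 3 change differed from the PND 10 to PND 42 change, averaged over the genotypes, a contrast chosen after the data had been seen. The difference was called for 4 of 10 genes, 3 of them with the later interval more negative, beside 10.1% of all probe sets lower and 9.08% higher. Wnt2 had a difference of 2.84 (log2, SE 0.24, adjusted p 1.71e-09), Fgf18 1.35 (SE 0.19, adjusted p 2.39e-06) and Wnt5a 1.01 (SE 0.34, adjusted p 0.0147). Fgfr2 had a difference of -1.15 (SE 0.14, adjusted p 2.76e-07), its fall lying in the first interval. With array medians subtracted the Fgfr2 difference was -0.975, just under 2-fold, and the call was lost. Wnt5a stood at the limit and lost its call in 12 of 38 alternatives, the lowest value being 0.62 with both PND 0 replicate 1 arrays left out (adjusted p 0.0536). Ptch1 (-0.92, adjusted p 0.00712) and Hhip (-0.60, adjusted p 0.024) were under 2-fold in this contrast.

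**Figure D3:**
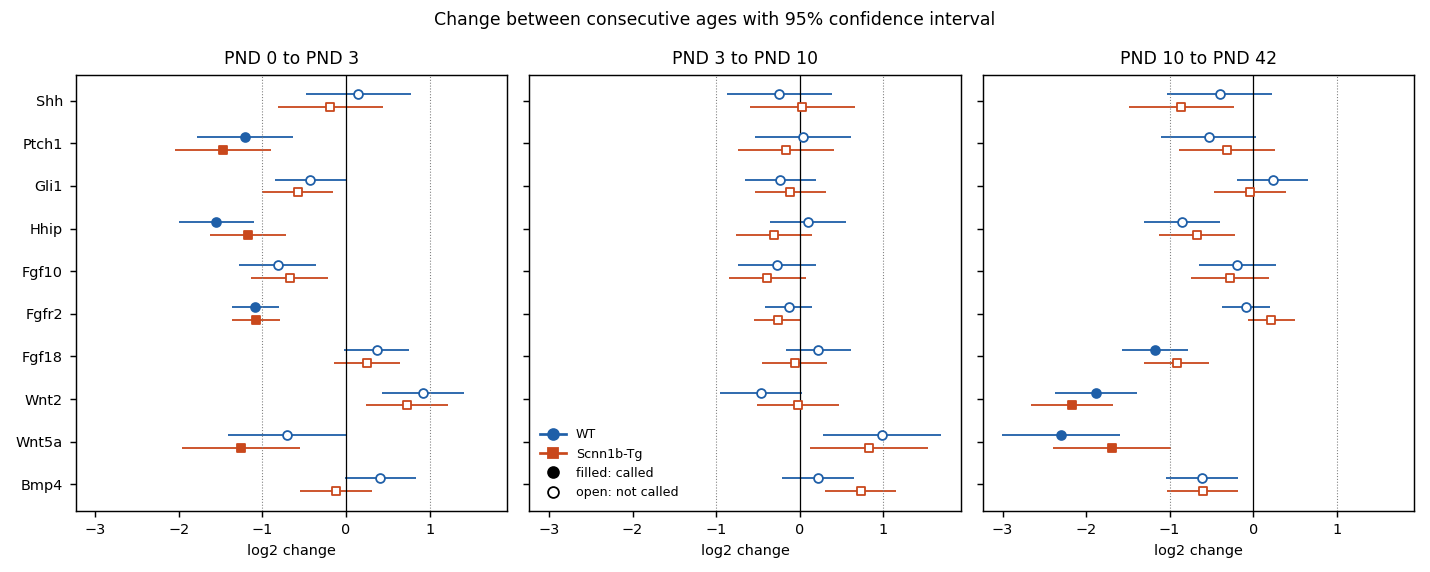
log2 change of each gene between consecutive ages in WT (blue circles) and Scnn1b-Tg (orange squares), with 95% confidence intervals from the limma fit, filled where called, and dotted lines at a 2-fold change. The called changes lie at Ptch1, Hhip, Fgfr2 and, in Scnn1b-Tg, Wnt5a in the first interval and at Fgf18 (WT), Wnt2 and Wnt5a in the last.

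The comparison of Scnn1b-Tg with WT at each age asked whether airway surface dehydration went with a change in these signals. By limma, 0 of 10 genes were called at PND 0, 3, 10 or 42, where 0.0138%, 0.0184%, 0.151% and 0.34% of all probe sets were called. At an unadjusted p of at most 0.05 there were 0, 2, 0 and 0 of the 10. The 2 were Wnt2 (log2 difference -0.56, 95% confidence interval -1.05 to -0.07, adjusted p 0.619) and Bmp4 (-0.45, -0.87 to -0.02, adjusted p 0.656), both at PND 3 and both lower in Scnn1b-Tg. For Bmp4 the highest Scnn1b-Tg array of PND 3 (7.62) lay above the lowest WT array (7.51), and for Wnt2 the groups overlapped likewise. Except for Wnt5a at PND 0 and PND 10 and Wnt2 at PND 3, every 95% confidence interval of the 10 genes at the 4 ages ended inside a 2-fold difference.

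Wnt2 was lower in Scnn1b-Tg in the mean of each age, by -0.37, -0.56, -0.11 and -0.39 at the 4 ages in turn. Averaged over the 4 ages, a comparison added after the data had been seen, its difference was -0.35 (SE 0.12, 95% confidence interval -0.60 to -0.11), which did not pass adjustment (adjusted p 0.261). In this comparison 0 of 10 genes were called by limma, 1 had an unadjusted p of at most 0.05, and 0.0413% of all probe sets were called. The receptor Fgfr2 had the narrowest intervals, -0.21 to 0.36 at PND 0 and -0.03 to 0.54 at PND 42.

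**Figure D4:**
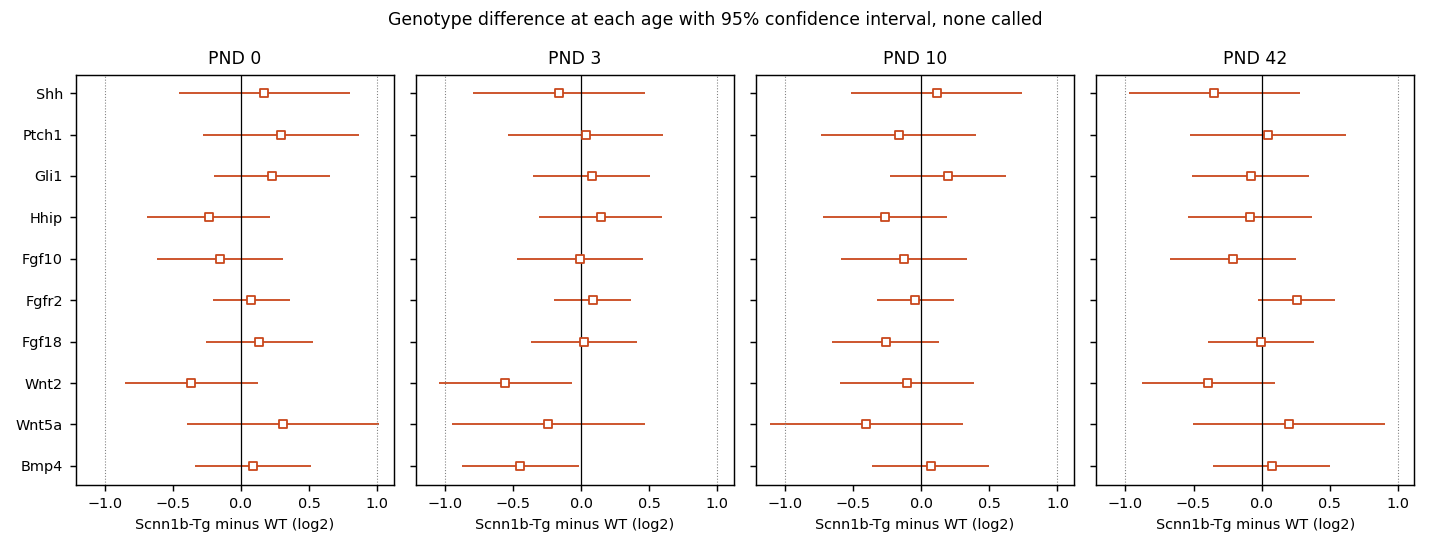
Scnn1b-Tg minus WT (log2) of each gene at PND 0, 3, 10 and 42, with 95% confidence intervals from the limma fit and dotted lines at a 2-fold difference. All 10 genes at all 4 ages are open symbols (not called), and only Wnt2 and Bmp4 at PND 3 have intervals that leave out 0.

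Whether an age change itself differed between the genotypes was tested as an interaction. By limma, 0 of 10 genes were called for the intervals PND 0 to PND 3, PND 3 to PND 10 and PND 10 to PND 42, with 0 genes at an unadjusted p of at most 0.05 in each and lowest adjusted p of 0.998, 0.802 and 0.689. Over all probe sets 0%, 0.00918% and 0.225% were called. The single-interval calls given by 1 genotype alone (Wnt5a in Scnn1b-Tg before PND 3, Fgf18 in WT after PND 10) are therefore not shown to differ between the genotypes. For the whole-span call of Shh in Scnn1b-Tg the difference between the genotypes was not tested. Of the 86 measured genes of the 4 pathway lists, 0 were called between genotypes at any age, and 5, 6, 12 and 7 had an unadjusted p of at most 0.05 at PND 0, 3, 10 and 42. These are 5.81%, 6.98%, 14% and 8.14% of the 86, beside 4.54%, 7.35%, 8.65% and 10.3% of all probe sets at the same threshold.

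Age accounted for most of the variance among the 24 arrays in 8 of the 10 genes, as a description with no test. Its share was 91.9% for Fgfr2, 90.5% for Hhip, 87.9% for Wnt2, 82.1% for Ptch1, 80.5% for Wnt5a, 78.8% for Fgf10, 78.3% for Fgf18 and 54.4% for Gli1. For Bmp4 and Shh it was 49.7% and 42.8%, and in Shh the spread within groups took 51.9%. Genotype within an age took between 1.28% (Ptch1) and 10.6% (Bmp4).

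The pairs of these genes with the most alike profiles over the 24 arrays were Hhip with Fgf10 (Pearson r 0.89), Ptch1 with Hhip (0.857), Hhip with Fgfr2 (0.842) and Fgf18 with Wnt2 (0.828). The arrays share 4 ages, so any genes that differ with age correlate, and no p is given. Of 8887 genes with a group mean above 6, those most like each member were, for the Hedgehog genes, Brms1l (0.851) and Amz2 (0.836) with Shh, Sufu (0.946) and Samd5 (0.944) with Ptch1, C2cd3 (0.852) and Rnf214 (0.844) with Gli1 and Zbtb10 (0.965) and Btbd3 (0.964) with Hhip. For the FGF genes they were Fmr1 (0.923) and Cdc73 (0.916) with Fgf10, Brd2 (0.974) and Ppp3ca (0.973) with Fgfr2 and Psmd5 and Pdlim3 (0.915 each) with Fgf18. For the others they were Tspan6 (0.96) and Rfc3 (0.957) with Wnt2, Cdh11 (0.947) and Sox4 (0.931) with Wnt5a and Mettl16 (0.849) and Rspo2 (0.83) with Bmp4. Sufu, the Hedgehog inhibitor, was the only one of the 20 from the same pathway list as its member, and Rspo2 belongs to the WNT list.

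Cell type markers moved with these ages too. The mean log2 level of 10 mesenchymal markers was 9.74, 9.10, 9.72 and 8.96 at PND 0, 3, 10 and 42 in WT and 9.62, 8.99, 9.45 and 9.18 in Scnn1b-Tg, lower at PND 3 and PND 42 than at PND 0 and PND 10, as the Wnt5a means were. In both genotypes 3 of these 10 were called lower from PND 0 to PND 3, beside 7.79% of all probe sets in WT and 8% in Scnn1b-Tg. The mean of 4 markers of dividing cells was 5.98, 6.76, 6.93 and 5.05 in WT and 5.78, 6.22, 7.07 and 5.18 in Scnn1b-Tg. All 4 were called lower from PND 10 to PND 42 in both, beside 3.84% of all probe sets in WT and 3.38% in Scnn1b-Tg. The mean of 10 epithelial markers stayed between 9.38 and 9.89 in all 8 groups, with 2 of 10 in WT and 0 in Scnn1b-Tg called lower between PND 0 and PND 3. Single markers moved both ways under that mean. From PND 10 to PND 42, 2 of 10 were called higher in Scnn1b-Tg, beside 1.79% of all probe sets, and 0 in WT. Over the whole span 2 of 10 were lower and 1 higher in WT, and 1 lower and 1 higher in Scnn1b-Tg. The shares of all probe sets there were 9.73% and 1.71% in WT and 8.7% and 2.48% in Scnn1b-Tg. The mean of 6 endothelial markers was lowest at PND 3, 8.19 in WT against 8.16 in Scnn1b-Tg. Their part in the changes of the 10 genes was not tested.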

How the data were processed

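RNA of left lung lobes was hybridised to 24 Affymetrix Mouse Gene 1.0 ST arrays, 3 pools for each genotype and age. The authors made the deposited log2 values, 1 per probe set and array, by RMA background correction, quantile normalization and median polish in Partek (6.5 per the labels). RMA pulls low signals together, so small changes are understated, and normalization can hide part of a shift of most genes. The deposited arrays still did not share 1 distribution, with medians from 4.79 to 5.0. Repeating quantile normalization moved the share of lower calls in WT from PND 0 to PND 3 from 79.9% to 59.9%. Differences in scale linked to age thus remained in the values, and their cause was not tested. Probe intensities and detection calls were not used here, so precision rests on the number of arrays. No column of other samples was present.

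From these values R 4.3.3 with limma 3.58.1 gave each of the 8 groups its own mean (lmFit over the 24 arrays, then eBayes), which leaves 16 degrees of freedom. Tests used the 21789 of 35556 rows that name 1 gene (1621 name several and 12146 none), adjusted by Benjamini-Hochberg within a contrast. Calls needed both a 2-fold change and an adjusted p no higher than 0.05. Genes of several probe sets are given by the brightest. The fit was tested on simulated data.

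The 10 genes, the pathway lists and the marker lists were chosen with earlier results of these data known. Named are all 10 genes, up to 3 called genes with the lowest p of each pathway list, the 2 genes most like each member and Scnn1b, and others are marked where they appear. The labels do not tie same-numbered replicates together. Of 84 same-number pairs, 19 had deviations from the group means correlated over 0.1 (median 0.0255), among them all 3 pairs of WT and Scnn1b-Tg at PND 0 (0.299, 0.153 and 0.29), so the number may mark something shared at that age and was also fitted as a block there. The genes' promoter sequences are RefSeq's (GRCm38.p6). Those of Shh, Gli1 and Wnt5a were not analysed here.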

Additional observations from a re-analysis of the deposited data

How the results depend on the processing

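Of 29 called changes of single genes, each set against 38 alternatives, 1072 of 1102 comparisons kept the direction and the call. In 30 the call was lost, and 0 reversed. The 30 fell on Shh (PND 0 to PND 42, Scnn1b-Tg), Ptch1, Fgfr2, Fgf10, Fgf18 and Wnt5a. These totals overstate robustness. Leaving out an array of a group outside a contrast leaves its log2 change as it was, and a looser fold threshold cannot remove a call. The Shh call was lost without Scnn1b-Tg PND 0 replicate 1, PND 0 replicate 2 or PND 42 replicate 3, all arrays of its own contrast. The counts of settings given for single pathway genes also include left-out arrays outside the contrast. Without any fold threshold, 5 genes instead of 3 passed in WT from PND 0 to PND 3, 5 instead of 3 in WT from PND 10 to PND 42, 7 instead of 4 in Scnn1b-Tg from PND 0 to PND 3, 6 instead of 2 in Scnn1b-Tg from PND 10 to PND 42 and 8 instead of 4 in the comparison of the intervals. A 1.5-fold threshold gave 5, 5, 6 and 8 for the same comparisons other than PND 0 to PND 3 in Scnn1b-Tg. Leaving out 1 array at a time gave 2 to 4 and 3 to 5 genes in WT and Scnn1b-Tg from PND 0 to PND 3, 3 to 4 and 2 to 3 from PND 10 to PND 42, 6 to 7 in both from PND 0 to PND 42, 3 to 4 for the comparison of the intervals and 0 for every genotype comparison, interaction and the PND 3 to PND 10 interval. Fits with the replicate number as a replicate block left all counts as they were, 3 and 4 from PND 0 to PND 3, 3 and 2 from PND 10 to PND 42, and 0 between genotypes. A replicate block at PND 0 alone, added after the data were seen, left these counts unchanged, with 0 of 10 genes between genotypes at PND 0 at an unadjusted p of at most 0.05. Leaving out both PND 0 replicate 1 arrays gave 4 and 4 from PND 0 to PND 3. Scaling moved the share of lower calls among all probe sets called. With quantile normalization repeated it went, in WT, from 79.9% to 59.9% (PND 0 to PND 3), from 69.3% to 57.9% (PND 10 to PND 42) and from 85% to 64.8% (PND 0 to PND 42), and in Scnn1b-Tg from 78% to 56.8%, from 65.3% to 59.3% and from 77.8% to 56.7%. The same setting moved the 10 genes' median from PND 0 to PND 42 from -1.29 to -0.97 in WT and from -1.23 to -0.99 in Scnn1b-Tg. For PND 0 to PND 3 it went from -0.57 to -0.37 and from -0.63 to -0.36. Over the whole span the calls of Fgf10 and Fgfr2 in WT and of Shh and Fgfr2 in Scnn1b-Tg were lost with it. Subtracting array medians gave 69.9% and 61.9% for PND 0 to PND 3 and moved the median change of all probe sets there from 0.07 to 0.21 in Scnn1b-Tg, against which the 10 genes' median was -0.48. Signal over background was not measured here, and Gli1 lay near the array medians. The cause was not tested.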

Other observations

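In some groups, though not in all, the 10 genes were high or low on the same array. Replicate 1 of Scnn1b-Tg PND 10 was the lowest of its group for 8 of the 10 genes, and replicate 3 the highest for 9. Replicate 1 was also the lowest for 7 of 10 in Scnn1b-Tg at PND 0 and at PND 3 and for 6 of 10 in WT at PND 0, and replicate 2 for 7 of 10 in WT at PND 3. In WT at PND 10 and PND 42 no array was the lowest for more than 4 of the 10. Correlations between arrays of a group over all probe sets lay between 0.912 and 0.992. The replicates have no order, and these counts were not tested.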
